A study of Saccharomyces cerevisiae with 8 samples.

Results

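A pair of ways to lower sumoylation was set against each other, gene by gene. One was a general reduction, in the *ubc9-6* strain, and the other was a reduction on a single protein, Tfg1, in the Tfg1-K60,61R-HA strain. For each gene of *Saccharomyces cerevisiae* the log2 fold change of *ubc9-6* against W303a was compared with that of Tfg1-K60,61R-HA against Tfg1-HA, and the difference between these effects was tested. A positive difference means that the *ubc9-6* effect lay above the Tfg1 effect. All 6120 counted genes entered, none was picked by its value, and 5909 of them had enough counts to be tested.

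The mRNA of 4 haploid strains was sequenced from polyadenylated RNA, with 2 libraries per strain from cells in mid-log growth in synthetic complete medium. All were derived from W303a, a MATa laboratory strain with mutations in *URA3*, *TRP1*, *LEU2*, *HIS3*, *ADE2* and *CAN1*. In *ubc9-6* the *UBC9* locus holds a tandem of the *ubc9-1* allele around an *ADH1* terminator and a *TRP1* marker. In Tfg1-HA the *TFG1* gene carries a C-terminal HA tag and the *TRP1* gene of *Kluyveromyces lactis*, and Tfg1-K60,61R-HA has the same tag and marker with Lys 60 and Lys 61 changed to Arg. That strain also holds an inadvertent substitution, N462Q, which cannot be told apart from the lysine changes. W303a is the only tryptophan auxotroph of the 4, so marker and mutation cannot be told apart in the *ubc9-6* effect, whereas both strains of the Tfg1 effect have a marker. Each effect was measured against its own parent, W303a or Tfg1-HA.

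Total counts lay between 26674458 and 34614232 per library. Between the replicates of a strain, the SD of the log2 difference across genes was 0.159 in W303a, 0.139 in *ubc9-6*, 0.175 in Tfg1-HA and 0.292 in Tfg1-K60,61R-HA, so the last strain was measured least precisely. The labels number the replicates and the series calls them independent, but name no culture, so p-values measure the spread between these libraries.

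SUMO is a small protein that is joined to lysines of other proteins. Ubc9 is the only enzyme of yeast that transfers it in the conjugation step, so a mutation in Ubc9 touches all SUMO substrates, many of which bind chromatin. Tfg1 is the large subunit of TFIIF, a general factor that escorts RNA polymerase II to promoters and helps it start, and it is one of these substrates. A change of its acceptor lysines leaves SUMO on other proteins in place.

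The stretch of *TFG1* that holds the altered lysine codons is shown to place the mutation. The gene lies on the plus strand of chromosome VII between positions 867774 and 869981 (sacCer3), and codons 54 to 67 occupy 867933 to 867974. The codons in capitals are 60 and 61, AAA and AAG, in the RefSeq reference sequence, which is the unmutated one.
TFG1 codons 54 to 67: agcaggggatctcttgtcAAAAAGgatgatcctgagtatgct

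Before any other gene, the engineered loci were read as a check of the labels. *UBC9* counted 74.1 and 75.6 CPM in W303a, 184 and 189.5 in *ubc9-6*, 81.6 and 81.7 in Tfg1-HA and 82.5 and 83.2 in Tfg1-K60,61R-HA. Both *ubc9-6* libraries lay far above the 6 others, which differed little among themselves, and the difference was 1.30 ± 0.06 log2 (standard error from the fit, edgeR's quasi-likelihood test with Benjamini-Hochberg adjustment, adjusted p = 2.6e-05). The tandem puts an additional copy of the allele into that strain. *TRP1*, which encodes an enzyme of tryptophan synthesis, counted 13.9 and 14.8 CPM in W303a, 351 and 366 in *ubc9-6*, 18.2 and 18.0 in Tfg1-HA and 19.0 and 18.3 in Tfg1-K60,61R-HA. Its difference of 4.60 ± 0.08 log2 was the highest of the called genes (adjusted p = 1.3e-08). The *K. lactis* marker is another gene, and the Tfg1 strains stayed near the level of W303a. *TFG1* itself counted 196 and 201 CPM in W303a, 193 and 194 in *ubc9-6*, 172 and 167 in Tfg1-HA and 160.4 and 161 in Tfg1-K60,61R-HA, and its difference of 0.04 ± 0.06 log2 was not called (adjusted p = 0.75, 95% confidence interval -0.10 to 0.18). *SMT3*, the yeast SUMO gene, had 175 and 175 CPM in W303a, 178 and 184 in *ubc9-6*, 189 and 186 in Tfg1-HA and 212 and 187 in Tfg1-K60,61R-HA. No difference was called for it either (-0.04 ± 0.09 log2, adjusted p = 0.85, interval -0.23 to 0.16). The counts cannot show a change of a single codon, so the lysine mutation was not checked here. Of the 14 tested genes of the SUMO pathway (E1, E2, ligases, proteases and SUMO), *UBC9* alone was called, and their median difference was -0.01 log2, or 0.11 when libraries were scaled by total counts.

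The effects differed at 359 genes, which is 6.08% of those tested (edgeR's quasi-likelihood test, Benjamini-Hochberg adjusted p under 0.05). For 190 genes (3.22%) the *ubc9-6* effect was the higher, and for 169 (2.86%) it was the lower. An unadjusted p under 0.05 was reached by 1354 genes. The higher differences were the larger ones. Among the called genes 62 were over 2-fold higher and 6 over 2-fold lower, and the medians were 0.74 and -0.34 log2.

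Each effect was also tested on its own: *ubc9-6* against W303a called 1229 genes (20.8%), whereas Tfg1-K60,61R-HA against Tfg1-HA called none (0%) by the same test, with 572 genes at an unadjusted p under 0.05. DESeq2 called 36 and edgeR's likelihood ratio test 3 in the Tfg1 comparison. Both counts depended on single libraries. The quasi-likelihood test called 446 genes in the Tfg1 comparison without Tfg1-K60,61R-HA replicate 2, and the count for *ubc9-6* fell to 262 without *ubc9-6* replicate 2. Among the 359 genes, the *ubc9-6* effect was the larger in size for 331 and the Tfg1 effect for 28. The called higher genes had a median *ubc9-6* effect of 0.72 and a median Tfg1 effect of -0.01. For the called lower genes these were -0.25 and 0.10. Opposite signs were seen in 246 called genes, and 66 of these had an unadjusted p under 0.05 on both sides, 55 with a lower and 11 with a higher difference. Picking genes by the difference favours opposite signs, so these medians and counts are no separate evidence for a Tfg1 effect.

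A gene called in *ubc9-6* was mostly not called in the difference. This was so for 895 genes, and for 684 of them the 95% confidence interval of the difference lay within 1.5-fold either way. Over all tested genes 4798 intervals lay within that bound, and the median half-width of an interval was 0.200 log2. Differences well below this size were not detectable with 2 libraries per strain.

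**Figure D1:**
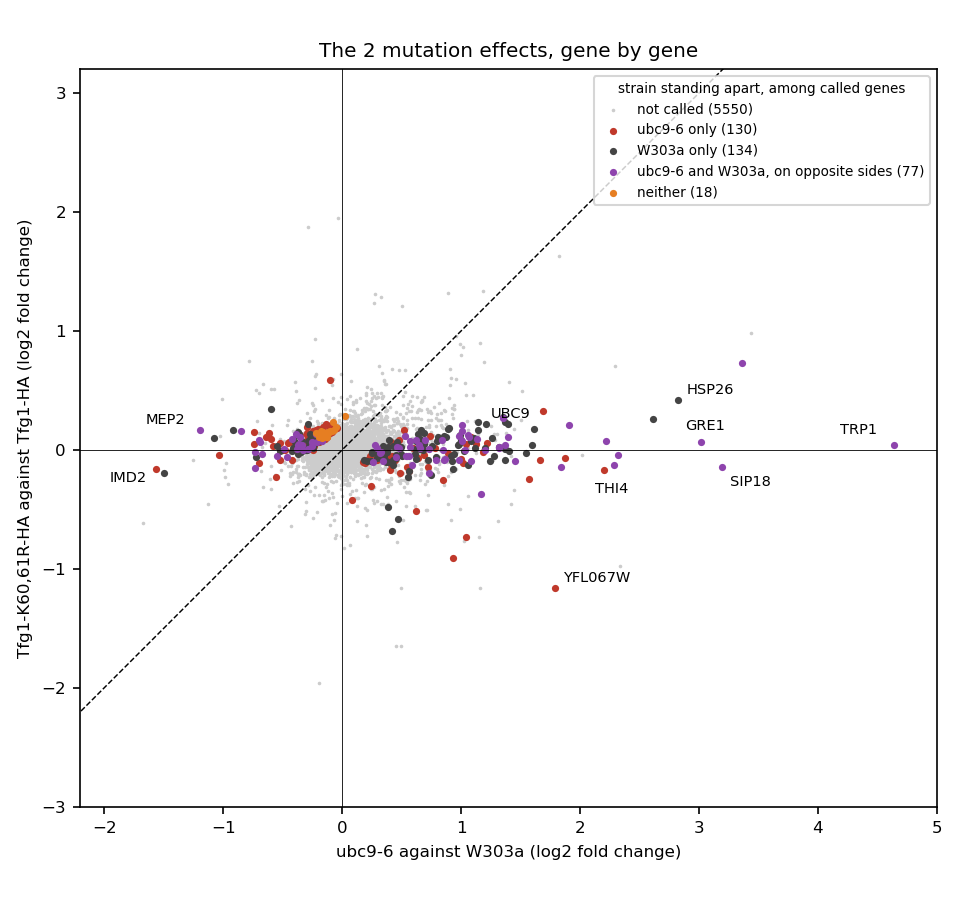
Each point is a tested gene, with its log2 fold change in *ubc9-6* against W303a on the horizontal axis and in Tfg1-K60,61R-HA against Tfg1-HA on the vertical axis, and the dashed line marks equal effects. The 359 called genes are coloured by the strain whose libraries stand apart, and most of them spread along the horizontal axis with a Tfg1 effect near 0; 3 genes that were not called lie outside the axes.

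The number of calls depended on single libraries. It was 94 without W303a replicate 1, 100 without W303a replicate 2, 144 without *ubc9-6* replicate 1, 102 without *ubc9-6* replicate 2, 214 without Tfg1-HA replicate 1 and 126 without Tfg1-HA replicate 2. Without Tfg1-K60,61R-HA replicate 1 it rose to 562, and without replicate 2 to 672. The replicates of that strain were the furthest apart, and whether this set the counts was not tested. Of the 359 genes, 80 were called in each of the 8 fits that left out 1 library.

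Because the contrast holds 2 parents, each called gene was also read by which strain stood apart, meaning that both its libraries lay above, or both below, the 6 libraries of the other strains. *ubc9-6* alone stood apart at 130 called genes (36.2% of the called, against 23.4% of all tested genes). W303a alone did so at 134 (37.3%, against 35.2%). At 77 genes (21.4%, against 2.83%) both stood apart on opposite sides with the Tfg1 strains between them, and at 18 neither did. By this definition Tfg1-HA, in which the lysines are unchanged, lay on the same side of W303a as *ubc9-6* in the 134 genes set apart by W303a. The difference holds *ubc9-6* minus W303a, so picking genes by it favours these strains at opposite ends. The shares among called genes are thus no separate evidence.

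Tfg1-HA lay on the *ubc9-6* side of W303a for 159 of the 190 higher and 128 of the 169 lower genes. For 67 and 39 of them it was at or beyond the *ubc9-6* level. The difference rises with Tfg1-HA and falls with W303a, so picking genes by it favours a Tfg1-HA level on the *ubc9-6* side. These counts are thus no separate evidence, and the share over all tested genes was not counted. A difference between the effects is by its construction a statement about both parents as well as both mutants. The functions below are ordered by which strain stood apart. The counts of called genes in each list are to be read against the 6.08% called over all genes.

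**Figure D2:**
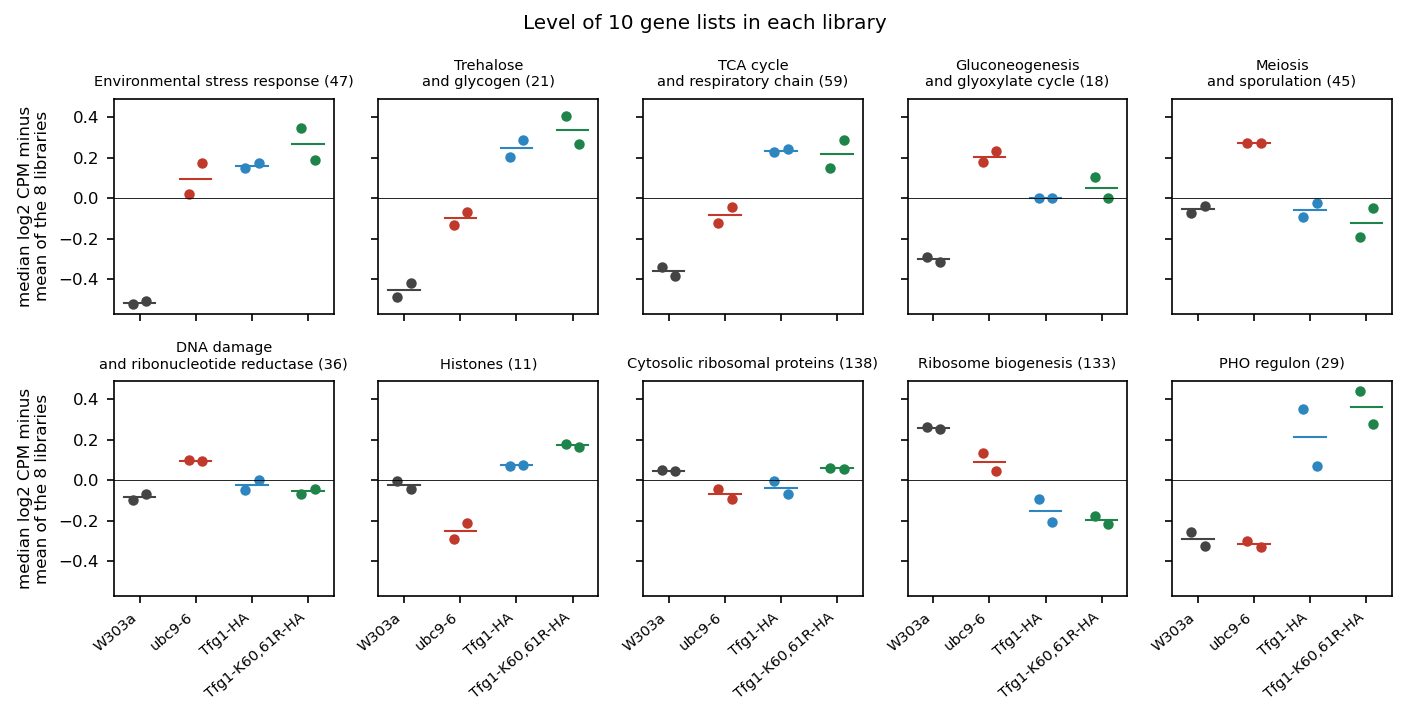
For 10 lists of genes with a shared function the median over tested members (their number in brackets) of log2 CPM minus the gene's mean over the 8 libraries is drawn for each library, with bars at the strain means. W303a lies lowest in the stress, trehalose and glycogen, and respiratory lists, whereas *ubc9-6* lies highest for meiosis and DNA damage genes and lowest for histone genes.

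Stress genes were the largest group of higher differences. Of 47 tested genes of the environmental stress response, the set that yeast induces under many kinds of stress, 22 were called higher and 1, *GPP1*, lower, with a median difference of 0.58 log2 against -0.0018 over all genes. The median effect was 0.73 in *ubc9-6* and 0.10 in the Tfg1 mutant. W303a alone stood apart at 18 of the 23 called genes, and both W303a and *ubc9-6* at 5. The count was 13 without W303a replicate 1 and 30 without Tfg1-K60,61R-HA replicate 1.

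*HSP26*, a small heat shock chaperone, illustrates the pattern with 20.6 and 20.7 CPM in W303a, 133 and 160.0 in *ubc9-6*, 184 and 229 in Tfg1-HA and 332 and 220.2 in Tfg1-K60,61R-HA. All 6 libraries outside W303a were far above it, the Tfg1 libraries further than those of *ubc9-6*, and the difference was 2.41 ± 0.27 log2 (adjusted p = 0.0022). *DDR2*, a small stress-induced protein of the same regulon, had 12.6 and 14.2 CPM in W303a, 77.5 and 87.6 in *ubc9-6*, 77.6 and 67.8 in Tfg1-HA and 113 and 60.4 in Tfg1-K60,61R-HA. The Tfg1-K60,61R-HA replicates were far apart here and covered the *ubc9-6* values, and the difference of 2.36 ± 0.35 was called in 6 of the 8 fits that left out 1 library.

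*SIP18*, which encodes a hydrophilin that protects against drying, was different in form. It had 1.45 and 1.36 CPM in W303a, 11.6 and 14.1 in *ubc9-6*, 3.07 and 3.72 in Tfg1-HA and 3.73 and 2.37 in Tfg1-K60,61R-HA. *ubc9-6* was the highest and W303a the lowest strain, with no overlap, and the difference was 3.34 ± 0.32 log2 (adjusted p = 0.00089). *GRE1*, its paralogue, had 4.20 and 3.69 CPM in W303a, 29.8 and 34.1 in *ubc9-6*, 7.42 and 7.48 in Tfg1-HA and 8.69 and 6.81 in Tfg1-K60,61R-HA. The order of the strains was the same, with a difference of 2.96 ± 0.19 log2 (adjusted p = 0.0002), and both genes were called in all 8 fits that left out 1 library. *SPG4*, needed for survival in stationary phase, and *TMA10*, a ribosome-associated protein, had differences of 2.63 ± 0.36 and 2.42 ± 0.17.

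*NQM1* and *GND2*, both outside the lists, were among the 12 highest differences. *NQM1*, a transaldolase, counted 3.55 and 3.78 CPM in W303a, 17.9 and 18.7 in *ubc9-6*, 5.50 and 6.26 in Tfg1-HA and 6.32 and 5.05 in Tfg1-K60,61R-HA. *GND2*, a phosphogluconate dehydrogenase, counted 5.69 and 7.08 CPM in W303a, 22.2 and 23.9 in *ubc9-6*, 12.5 and 14.2 in Tfg1-HA and 12.8 and 11.3 in Tfg1-K60,61R-HA. In both genes *ubc9-6* was highest and W303a lowest, and the differences were 2.36 ± 0.19 (adjusted p = 0.00043) and 1.99 ± 0.18 log2 (adjusted p = 0.00067). *SPS100*, a spore wall protein of the meiosis list, differed by 2.14 ± 0.26 log2 with its Tfg1 libraries again between the other strains.

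The stress response element, AGGGG or its reverse complement CCCCT, is the site of the activators Msn2 and Msn4, and it was searched in the 500 bases from 600 to 101 upstream of each gene's annotated start, on both strands. It was found upstream of 116 of the 190 called higher genes (61.1%), of 33.1% of the 169 called lower genes and of 35.3% of all 5894 tested genes with a window. At least 2 matches were seen in 29.5%, 4.73% and 8.48%. In the environmental stress list, 80.9% of the 47 tested and 87.0% of the 23 called genes had a match. Within that list the share among called members was thus close to that of all members. A match is a run of letters and no evidence of binding. The stretches with most matches in 3 of the named genes are shown 5′ to 3′ on the gene's strand, from RefSeq (sacCer3), with the element in capitals.
SIP18, chrXIII:610615-610664, plus strand: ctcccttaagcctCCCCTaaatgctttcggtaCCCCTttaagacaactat
HSP26, chrII:381538-381587, plus strand: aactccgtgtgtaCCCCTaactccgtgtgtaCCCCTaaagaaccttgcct
DDR2, chrXV:231954-232003, minus strand: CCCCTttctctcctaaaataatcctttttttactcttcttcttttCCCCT

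Reserve carbohydrates followed the stress genes. Of 21 tested genes for trehalose and glycogen, 7 were called higher and none lower, all with W303a alone apart, and the median difference was 0.32 log2. *TSL1*, a subunit of trehalose synthase, counted 56.8 and 50.3 CPM in W303a, 100.03 and 110.5 in *ubc9-6*, 208 and 235 in Tfg1-HA and 221 and 233 in Tfg1-K60,61R-HA. *GPH1*, glycogen phosphorylase, counted 67.9 and 66.1 CPM in W303a, 153 and 156 in *ubc9-6*, 323 and 359 in Tfg1-HA and 444 and 348 in Tfg1-K60,61R-HA. W303a was lowest in both genes and *ubc9-6* lay between it and the Tfg1 strains, which were the highest. The differences were 0.94 ± 0.12 (adjusted p = 0.0034) and 0.99 ± 0.15 log2 (adjusted p = 0.0082), *GPH1* being called in 6 of the 8 fits. Only 1 gene of the list was called without W303a replicate 1, and 9 without Tfg1-K60,61R-HA replicate 1.

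Among 33 heat shock chaperones 8 were called higher and 1, the ribosome-associated Hsp70 *SSB1*, lower (-0.30 ± 0.07), but the median difference was 0.04 log2. The fits that left out 1 library gave 3 to 11 calls in this list, and *SSB1* was called in 1 of these 8 fits. *SSA3*, an Hsp70 that is induced by heat and stress, counted 33.9 and 35.2 CPM in W303a, 77.9 and 80.9 in *ubc9-6*, 42.3 and 45.6 in Tfg1-HA and 44.4 and 43.5 in Tfg1-K60,61R-HA. Both *ubc9-6* libraries stood above all others, and the difference was 1.20 ± 0.08 log2 (adjusted p = 0.00019). *RTN2*, a reticulon-like protein of the endoplasmic reticulum in the stress list, counted 20.2 and 21.3 CPM in W303a, 58.8 and 62.5 in *ubc9-6*, 53.9 and 60.6 in Tfg1-HA and 57.3 and 55.0 in Tfg1-K60,61R-HA. Here the 6 libraries outside W303a overlapped, and the difference of 1.58 ± 0.10 log2 (adjusted p = 0.00019) rested on the low level of W303a. Of 27 genes against oxidative stress 3 were called (11.1%, against 6.08% of all genes), all higher. *OYE3*, an NADPH dehydrogenase, differed by 1.54 ± 0.20 log2 and *PRX1*, a mitochondrial peroxiredoxin, by 0.70 ± 0.08.

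Respiratory genes had higher differences as a group. Of 59 tested genes of the TCA cycle and respiratory chain, 14 were called higher and none lower, 54 lay above 0, and the median was 0.31 log2. W303a alone stood apart at 13 of the 14. The genes took 1.53% and 1.52% in W303a, 1.87% and 1.97% in *ubc9-6*, 2.22% and 2.29% in Tfg1-HA and 2.01% and 2.26% in Tfg1-K60,61R-HA of the counts, so the Tfg1 strains were above *ubc9-6* as well. Without W303a replicate 1 only 1 gene was called, and 48 without Tfg1-K60,61R-HA replicate 2. *CYC7*, the isoform of cytochrome c that is favoured at low oxygen, counted 11.8 and 12.7 CPM in W303a, 35.5 and 38.8 in *ubc9-6*, 39.1 and 41.7 in Tfg1-HA and 43.8 and 39.1 in Tfg1-K60,61R-HA. The 3 strains other than W303a lay close together, with both *ubc9-6* libraries just below those of the Tfg1 strains, and the difference was 1.56 ± 0.11 log2 (adjusted p = 0.0003). *NDE2*, an external NADH dehydrogenase of mitochondria, had a difference of 1.18 ± 0.19 log2. *CIT1*, citrate synthase, and *SDH2*, a subunit of succinate dehydrogenase, named after their values were seen, differed by 0.55 ± 0.10 and 0.52 ± 0.11.

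A pair of purine genes had W303a highest. *IMD2*, which lies near a chromosome end, and *IMD3* encode IMP dehydrogenase, which commits IMP to GMP. *IMD2* counted 536 and 519.8 CPM in W303a, 186 and 187 in *ubc9-6*, 49.9 and 50.2 in Tfg1-HA and 40.9 and 46.6 in Tfg1-K60,61R-HA. The strains did not overlap, *ubc9-6* lay between W303a and the low Tfg1 strains, and the difference was -1.30 ± 0.09 log2 (adjusted p = 0.00022). *IMD3* counted 716 and 734 CPM in W303a, 440.4 and 438 in *ubc9-6*, 359.8 and 344 in Tfg1-HA and 331 and 345 in Tfg1-K60,61R-HA. It differed by -0.67 ± 0.06 log2 (adjusted p = 0.00089) with *ubc9-6* again between W303a and the Tfg1 strains. *ADE4*, which starts purine synthesis, went the other way with 41.5 and 42.8 CPM in W303a, 153 and 163 in *ubc9-6*, 122 and 113 in Tfg1-HA and 149.9 and 122 in Tfg1-K60,61R-HA. W303a was lowest, the Tfg1 strains were close below *ubc9-6*, and the difference was 1.69 ± 0.13 log2 (adjusted p = 0.00038). These 3 were the called members of the 26 tested purine genes (11.5%, against 6.08% of all genes). The median of the 26 was -0.13 log2, or -0.01 with total counts for scaling.

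*QDR2*, a plasma membrane exporter of drugs and cations, counted 38.3 and 39.2 CPM in W303a, 18.1 and 18.7 in *ubc9-6*, 12.3 and 14.9 in Tfg1-HA and 14.6 and 14.5 in Tfg1-K60,61R-HA. *MGA1*, which resembles heat shock factors, counted 21.1 and 19.4 CPM in W303a, 11.5 and 15.3 in *ubc9-6*, 4.14 and 4.01 in Tfg1-HA and 5.06 and 5.28 in Tfg1-K60,61R-HA. For both genes W303a was highest and the Tfg1 strains were below *ubc9-6*. The difference was -1.17 ± 0.13 log2 for *QDR2* (adjusted p = 0.0022) and -0.94 ± 0.20 for *MGA1* (adjusted p = 0.037), the latter called in 3 of the 8 fits.

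Cell wall genes held many lower calls. Of 53 tested genes of the cell wall 14 were called lower and 1, the glucan synthase gene *GSC2*, higher (0.93 ± 0.13), although the median over the list was only -0.07 log2 and turned to 0.05 with total counts for scaling. *ubc9-6* alone stood apart at 8 of the 15, W303a alone at 2, and both at 5. The called lower members include *DSE1*, *DSE2*, *DSE3*, *DSE4*, *SCW11*, *CTS1*, *EGT2* and *AMN1*, named here after their values were seen. They serve the parting of daughter from mother cells. The count was 9 without W303a replicate 2 and 24 without Tfg1-K60,61R-HA replicate 2.

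*DSE4*, an endoglucanase of the daughter side, counted 490.3 and 471 CPM in W303a, 290.1 and 301 in *ubc9-6*, 365 and 364 in Tfg1-HA and 388 and 386 in Tfg1-K60,61R-HA. *EGT2*, a wall protein of the same process, counted 806 and 799 CPM in W303a, 500.1 and 494 in *ubc9-6*, 613 and 603 in Tfg1-HA and 592 and 682 in Tfg1-K60,61R-HA. Both *ubc9-6* libraries were the lowest and both W303a libraries the highest, and the differences were -0.79 ± 0.06 (adjusted p = 0.00038) and -0.76 ± 0.09 log2 (adjusted p = 0.0026). *AMN1*, a daughter-specific regulator of mitotic exit and cell separation, counted 368 and 353 CPM in W303a, 219 and 216 in *ubc9-6*, 303.5 and 311 in Tfg1-HA and 299.9 and 307 in Tfg1-K60,61R-HA. Its difference was -0.71 ± 0.06 log2 (adjusted p = 0.0006). *CTS1*, the chitinase that cuts the septum, counted 1195 and 1142 CPM in W303a, 829 and 887 in *ubc9-6*, 1271 and 1306 in Tfg1-HA and 1373 and 1322 in Tfg1-K60,61R-HA. Here *ubc9-6* alone was low and the Tfg1 strains were at or above W303a, with a difference of -0.51 ± 0.07 log2 (adjusted p = 0.0049). *DSE1*, *DSE2* and *SCW11* differed by -0.68 ± 0.08, -0.62 ± 0.09 and -0.63 ± 0.08.

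Other genes of the same phase lay outside that list. *PCL9*, a cyclin of the early G1 phase, counted 117 and 118 CPM in W303a, 75.9 and 74.7 in *ubc9-6*, 115 and 104 in Tfg1-HA and 117 and 119 in Tfg1-K60,61R-HA. Only the *ubc9-6* libraries were low, and the difference was -0.75 ± 0.07 log2 (adjusted p = 0.0012). *ASH1*, a daughter-specific repressor of *HO*, and *HO*, the mating type endonuclease, differed by -0.51 ± 0.06 (adjusted p = 0.0034) and -0.58 ± 0.11 (adjusted p = 0.021), which was noticed after the values were seen. *SFG1*, a regulator of growth form, counted 171 and 157 CPM in W303a, 82.7 and 76.8 in *ubc9-6*, 146 and 171 in Tfg1-HA and 134 and 174 in Tfg1-K60,61R-HA. Again only *ubc9-6* was low, with a difference of -0.997 ± 0.17 log2 (adjusted p = 0.016). Of 34 cyclins and cell cycle regulators 2 were called (5.88%, against 6.08% of all genes), *PCL9* and *FAR1*, both lower. The list's median was 0.02 log2.

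Histone genes had *ubc9-6* at the low end. Of 11 tested core and linker histone genes, 7 were called lower and none higher, 10 lay below 0, and the median difference was -0.31 log2, or -0.19 with total counts for scaling, when 4 were called. *ubc9-6* alone stood apart at all 7. *HTA2*, which encodes histone H2A, counted 680.2 and 685 CPM in W303a, 531 and 539 in *ubc9-6*, 681 and 695 in Tfg1-HA and 747 and 755 in Tfg1-K60,61R-HA. Its effects were -0.35 in *ubc9-6* and 0.13 in the Tfg1 mutant (unadjusted p = 0.009, not called after adjustment). The difference was -0.48 ± 0.05 log2 (adjusted p = 0.0021). *HHF1*, a gene for histone H4, counted 696 and 670.1 CPM in W303a, 588 and 588 in *ubc9-6*, 821 and 825 in Tfg1-HA and 929 and 924 in Tfg1-K60,61R-HA. The Tfg1 strains were above W303a and *ubc9-6* was below it, with a difference of -0.39 ± 0.05 log2 (adjusted p = 0.006). *HHF1* has a near-identical copy, *HHF2*, so reads that fit both were not counted. Without W303a replicate 1 the count was 2.

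Called DNA damage genes had *ubc9-6* at the high end. Of 36 tested genes of the DNA damage response and ribonucleotide reductase, 7 were called higher and none lower, and the median was 0.17 log2. *ubc9-6* stood apart at all 7, with W303a at the other extreme in 3. *DUN1*, a kinase of the damage checkpoint, counted 48.7 and 48.5 CPM in W303a, 71.1 and 72.8 in *ubc9-6*, 61.6 and 61.0 in Tfg1-HA and 61.1 and 57.2 in Tfg1-K60,61R-HA. *ubc9-6* was the highest strain and W303a the lowest, and the difference was 0.62 ± 0.06 log2 (adjusted p = 0.0016). *RNR3*, a subunit of ribonucleotide reductase that is a common marker of damage, had 7.22 and 7.17 CPM in W303a, 18.9 and 19.3 in *ubc9-6*, 7.004 and 7.19 in Tfg1-HA and 14.1 and 6.93 in Tfg1-K60,61R-HA. One Tfg1-K60,61R-HA library was almost as high as *ubc9-6*, and the difference of 0.83 ± 0.37 was not called (adjusted p = 0.22). The count was 2 without W303a replicate 1 and 13 without Tfg1-K60,61R-HA replicate 2.

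ACGCGT, the site of the G1/S factor MBF, reads the same on both strands and was found upstream of 4 of these 7 genes, 8 of the 36 and 5.79% of all tested genes.

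Meiotic genes, which are silent or low in growing haploid cells, had a median difference of 0.35 log2 over 45 tested members. Of these 7 were called higher and 1 lower. *RIM4*, an RNA-binding activator of early meiosis, counted 21.8 and 21.3 CPM in W303a, 39.2 and 38.8 in *ubc9-6*, 32.9 and 36.0 in Tfg1-HA and 32.7 and 32.3 in Tfg1-K60,61R-HA. The 4 strains did not overlap, with *ubc9-6* highest and W303a lowest, and the difference was 0.94 ± 0.09 log2 (adjusted p = 0.00081). *MND1*, needed for meiotic recombination, was low in every library with 1.18 and 1.21 CPM in W303a, 2.72 and 2.68 in *ubc9-6*, 1.71 and 1.91 in Tfg1-HA and 1.39 and 1.42 in Tfg1-K60,61R-HA. Its difference was 1.54 ± 0.22 log2 (adjusted p = 0.0075). The exception, *SPS4*, had the lowest difference of all named genes with 15.2 and 13.2 CPM in W303a, 4.71 and 4.89 in *ubc9-6*, 11.9 and 14.7 in Tfg1-HA and 8.79 and 15.2 in Tfg1-K60,61R-HA. Only the *ubc9-6* libraries were low, but the difference of -1.40 ± 0.33 log2 (adjusted p = 0.046) was called in 2 of the 8 fits. Without W303a replicate 1 the list had 3 calls.

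*THI4*, an enzyme that makes the thiazole of thiamine, was the single called gene of 23 for thiamine (4.35%, against 6.08% of all genes). It counted 5.54 and 6.11 CPM in W303a, 25.8 and 27.8 in *ubc9-6*, 3.25 and 6.31 in Tfg1-HA and 3.79 and 4.78 in Tfg1-K60,61R-HA. *ubc9-6* stood far above each other library, with a difference of 2.37 ± 0.36 log2 (adjusted p = 0.0097) that was called in 6 of the 8 fits. The list's median was -0.18 log2, and no other member was called in this fit. *JLP1*, which frees sulfur from sulfonates, was raised in the same manner with 8.67 and 8.65 CPM in W303a, 17.0 and 17.5 in *ubc9-6*, 7.36 and 9.13 in Tfg1-HA and 7.90 and 7.73 in Tfg1-K60,61R-HA, a difference of 1.07 ± 0.16 log2 (adjusted p = 0.0084). It was 1 of 3 called genes among 35 for sulfur assimilation and methionine (8.57%, against 6.08% of all genes), the others being lower.

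Genes for growth without glucose had the highest median of all lists. Of 18 tested genes of gluconeogenesis and the glyoxylate cycle, 6 were called higher and none lower, 17 lay above 0, and the median was 0.64 log2. The median effect was 0.66 in *ubc9-6* and 0.01 in the Tfg1 mutant. *MDH2*, the cytosolic malate dehydrogenase, counted 51.1 and 48.3 CPM in W303a, 101 and 98.8 in *ubc9-6*, 65.4 and 65.8 in Tfg1-HA and 78.1 and 73.5 in Tfg1-K60,61R-HA. *ubc9-6* was highest, W303a lowest, and both effects were positive, 1.01 and 0.21 log2, so the difference of 0.80 ± 0.07 (adjusted p = 0.00047) came from the larger rise in *ubc9-6*. *ADR1*, an activator of genes for growth without glucose, counted 41.0 and 41.1 CPM in W303a, 75.9 and 80.8 in *ubc9-6*, 106 and 102 in Tfg1-HA and 91.4 and 95.1 in Tfg1-K60,61R-HA. Its effects had opposite signs, 0.93 in *ubc9-6* and -0.16 in the Tfg1 mutant (unadjusted p = 0.0096), and the difference was 1.09 ± 0.07 log2 (adjusted p = 0.00019). *PCK1* and *FBP1*, the defining enzymes of gluconeogenesis, were low everywhere, at most 8.84 and 5.74 CPM, and their differences of 0.65 ± 0.17 (adjusted p = 0.063) and 0.63 ± 0.20 (adjusted p = 0.1) were not called. Without W303a replicate 1 the list had 3 calls.

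Nitrogen genes had lower differences. Of 33 tested genes under nitrogen catabolite repression, which is relieved when good nitrogen sources run out, 8 were called lower and 2 higher, and the median was -0.16 log2, or -0.05 with total counts for scaling, when 4 were lower and 5 higher. *MEP2*, the high-affinity ammonium transporter, counted 501 and 475 CPM in W303a, 214 and 213 in *ubc9-6*, 271 and 278 in Tfg1-HA and 264 and 352 in Tfg1-K60,61R-HA. *GAP1*, the general amino acid permease, counted 2393 and 2206 CPM in W303a, 1270.2 and 1281 in *ubc9-6*, 1572 and 1783 in Tfg1-HA and 1707 and 2031 in Tfg1-K60,61R-HA. In both genes W303a was highest and *ubc9-6* lowest, and the differences were -1.36 ± 0.16 (adjusted p = 0.0025) and -1.01 ± 0.12 log2 (adjusted p = 0.0034). *DAL80*, a repressor of the same genes, counted 20.7 and 21.3 CPM in W303a, 11.5 and 10.8 in *ubc9-6*, 11.5 and 11.9 in Tfg1-HA and 12.4 and 13.9 in Tfg1-K60,61R-HA. Here *ubc9-6* and the Tfg1 strains lay close together, and the difference of -1.09 ± 0.13 log2 (adjusted p = 0.0026) rested on W303a. *PUT1*, proline oxidase, went up, with a difference of 0.88 ± 0.09 log2 (adjusted p = 0.0017). *ASP3-4*, an asparaginase gene with 3 near-identical copies, differed by -0.89 ± 0.19 and reads that fit a copy equally well were not counted. Without W303a replicate 1 the list had 4 calls.

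GATAAG or CTTATC, bound by the activators and repressors of this system, was found upstream of 9 of the 10 called genes, 81.8% of the 33 and 22.5% of all tested genes. The share among the called members was thus close to that of the whole list. Stretches of *MEP2* and *DAL80* show it in capitals.
MEP2, chrXIV:356974-357023, plus strand: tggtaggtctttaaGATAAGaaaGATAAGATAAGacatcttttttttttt
DAL80, chrXI:506590-506639, plus strand: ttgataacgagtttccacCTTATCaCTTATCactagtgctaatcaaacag

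**Figure D3:**
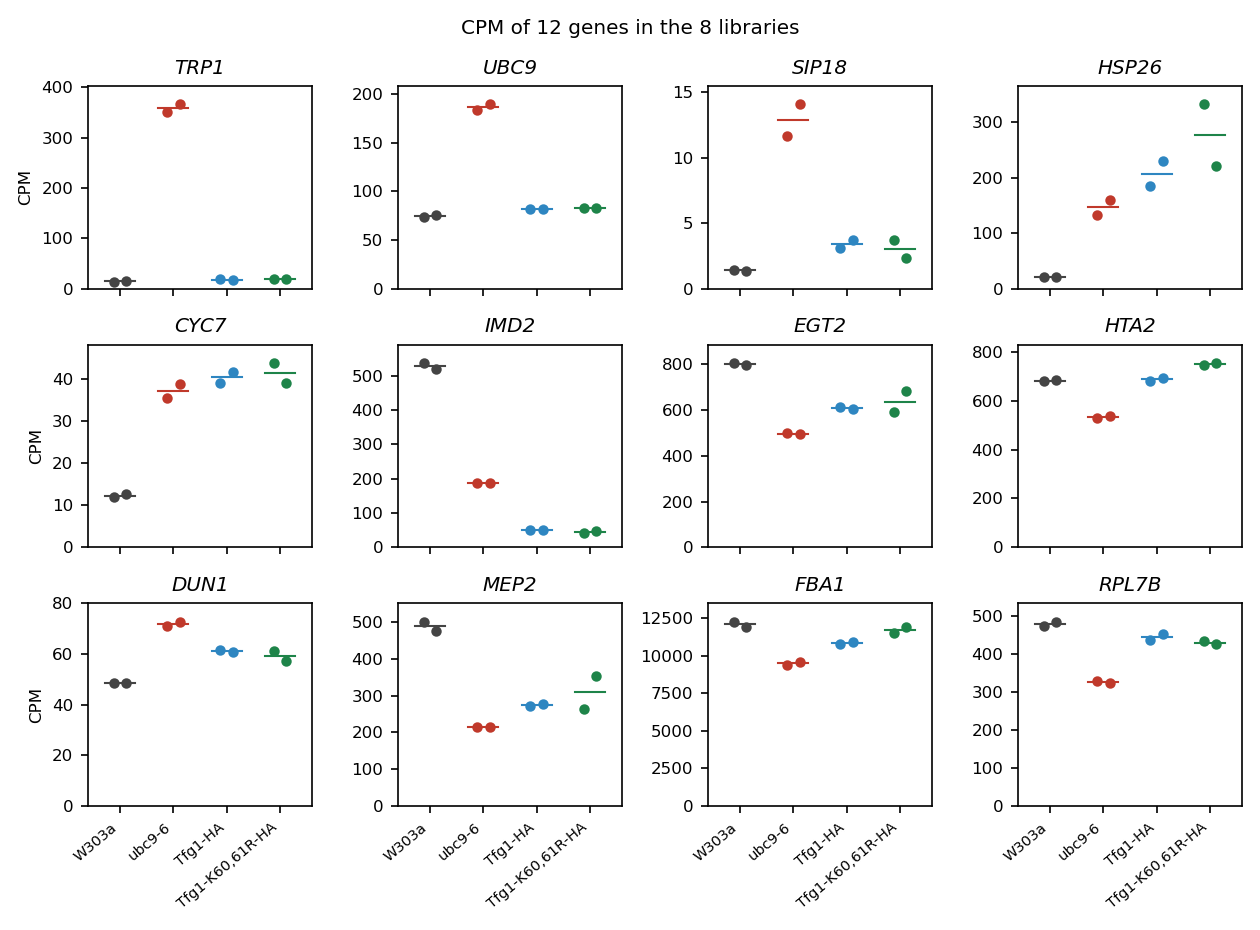
CPM on axes that start at 0 are drawn for 12 genes, with a point per library and a bar at the mean of each strain. *HSP26*, *CYC7* and *IMD2* have W303a apart from the 3 other strains. *UBC9* and *TRP1* have *ubc9-6* far above the rest, and *HTA2* has it lowest. In *SIP18*, *EGT2*, *DUN1*, *MEP2* and *FBA1* W303a and *ubc9-6* sit at opposite ends.

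Ribosomal protein genes made up the largest number of lower calls. Of 138 tested genes for cytosolic ribosomal proteins 48 were called lower and none higher, 137 lay below 0, and the median was -0.23 log2. The median effect was -0.12 in *ubc9-6* and 0.10 in the Tfg1 mutant, so the difference was made of a small lower and a small higher effect. At 28 of the 48 genes both effects had an unadjusted p under 0.05, with opposite signs. The 48 genes were picked by the difference, which favours opposite signs. For 17 of the 48 the Tfg1 effect was the larger in size.

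The number of calls depended on the scaling. With total counts in place of TMM factors the median was -0.12 log2 and 7 genes were called, and this choice raised the median difference of all genes from -0.0018 to 0.11 log2. These genes took 17.7% and 17.6% in W303a, 17.3% and 16.7% in *ubc9-6*, 17.2% and 16.8% in Tfg1-HA and 17.6% and 17.8% in Tfg1-K60,61R-HA of the counts, so their share moved little between libraries. The number of calls was 2 without W303a replicate 1 and 53 without Tfg1-K60,61R-HA replicate 1. *RPL7B*, for a protein of the large subunit, counted 473 and 485 CPM in W303a, 329.6 and 324 in *ubc9-6*, 437 and 451 in Tfg1-HA and 434 and 425 in Tfg1-K60,61R-HA. *ubc9-6* was lowest without overlap, and the difference was -0.50 ± 0.06 log2 (adjusted p = 0.0026). *RPL22B* had 196 and 192 CPM in W303a, 146 and 148 in *ubc9-6*, 145 and 144 in Tfg1-HA and 154 and 149 in Tfg1-K60,61R-HA. Only W303a was high there, with a difference of -0.47 ± 0.06 (adjusted p = 0.0038), so members of the list did not all separate the same strains. *ubc9-6* alone stood apart at 20 of the 48, W303a alone at 11, both at 3 and neither at 14. Of 133 ribosome biogenesis genes none was called, with a median of -0.11 log2, or 0.01 with total counts for scaling.

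Glycolytic genes were the other abundant group of opposite effects. Of 32 tested genes of glycolysis and fermentation 9 were called lower and 3 higher, with a median of -0.13 log2, or -0.01 with total counts for scaling, when 8 were lower and 5 higher. At 6 of the 9 lower genes both effects had an unadjusted p under 0.05 with opposite signs. Here too the genes were picked by the difference. *FBA1*, aldolase, counted 12262 and 11916 CPM in W303a, 9408 and 9555 in *ubc9-6*, 10759 and 10886 in Tfg1-HA and 11489 and 11896 in Tfg1-K60,61R-HA. Its effects were -0.35 in *ubc9-6* and 0.11 in the Tfg1 mutant (unadjusted p = 0.01), and the difference was -0.46 ± 0.05 log2 (adjusted p = 0.0015). *TPI1*, triose phosphate isomerase, counted 4852 and 4807 CPM in W303a, 3867 and 4031 in *ubc9-6*, 3797 and 4013 in Tfg1-HA and 4478 and 4582 in Tfg1-K60,61R-HA. Tfg1-HA was as low as *ubc9-6*, and the Tfg1 mutant was 0.21 log2 above its parent (unadjusted p = 0.00066), which gave a difference of -0.50 ± 0.06 (adjusted p = 0.0025). *CDC19*, pyruvate kinase, and *PGK1*, phosphoglycerate kinase, had differences of -0.35 ± 0.04 (adjusted p = 0.0036) and -0.37 ± 0.05 (adjusted p = 0.0043), with Tfg1 effects of 0.13 and 0.11. All 4 were called in each of the 8 fits that left out 1 library. The list had 5 calls without W303a replicate 2 and 16 without Tfg1-K60,61R-HA replicate 1. *HXT1*, a low-affinity glucose transporter, differed by -0.44 ± 0.07 log2 with W303a high. It was 1 of 2 called genes among 21 hexose transporters and their regulators (9.52%, against 6.08% of all genes), the other being *STD1*. Both were lower, but 17 of the 21 lay above 0 and the list's median was 0.28 log2.

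The genes with SUMO at their promoters were read as a separate list, taken from the study's own chromatin data on W303a cells, which are other samples than these. Of 163 tested genes outside the ribosomal proteins 37 were called lower and 8 higher, a share of 27.6% against 6.08% of all genes. These genes are abundant, with 17.7% to 19.7% of the counts of a library, and whether their count level set this share was not tested. Their median was -0.08 log2, or 0.03 with total counts for scaling, when 26 were lower and 14 higher. The list holds many glycolytic, histone and cell separation genes named above, *FBA1*, *TPI1*, *HHF1*, *DSE4* and *EGT2* among them, so it is no separate evidence. It had 20 calls without W303a replicate 1 and 56 without Tfg1-K60,61R-HA replicate 2.

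**Figure D4:**
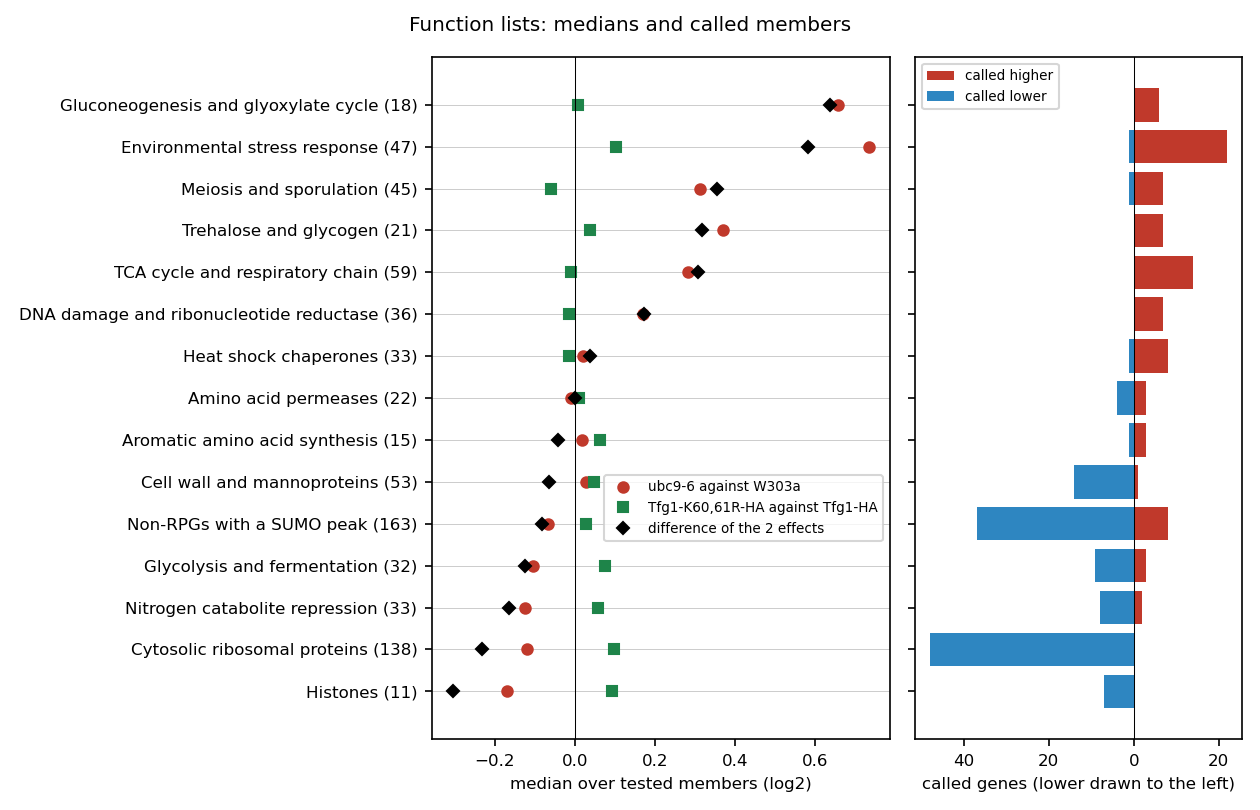
For the lists with at least 4 called genes the left panel gives the median over tested members (number in brackets) of the *ubc9-6* effect, the Tfg1 effect and their difference in log2 units, and the right panel gives the called genes in each direction. The difference follows the *ubc9-6* effect in the upper lists. In the ribosomal protein, histone, glycolytic and several other lists, such as nitrogen and SUMO peak genes, the Tfg1 effect lies on the other side of 0. With total counts for scaling the median differences of the cell wall, SUMO peak, aromatic amino acid and amino acid permease lists turn positive.

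Few genes of the transcription machinery itself were called. Of 32 genes for TFIIF and other general factors only *SPT15*, which encodes the TATA-binding protein, was called (3.12%, against 6.08% of all genes). It counted 201 and 204 CPM in W303a, 175 and 169 in *ubc9-6*, 201 and 203 in Tfg1-HA and 203 and 209.8 in Tfg1-K60,61R-HA. *ubc9-6* was lower than the other strains without overlap, and the difference was -0.27 ± 0.06 log2 (adjusted p = 0.044), which held in 2 of the 8 fits. *RPB10*, a subunit shared by the 3 RNA polymerases, was the only one of 12 RNA polymerase II genes (8.33%), with -0.33 ± 0.06 log2 (adjusted p = 0.027). Of these 12 genes 10 lay below 0. The list medians were -0.05 and -0.17 log2, and 0.07 and -0.05 with total counts for scaling. None of 36 genes for RNA polymerases I and III was called.

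Further lists held a few calls each. Of 34 genes of mating type a and the pheromone response 3 were called lower, among them *STE2*, the receptor of alpha factor, and *FAR1*, which arrests the cycle for mating, with differences of -0.50 ± 0.11 and -0.39 ± 0.09. That is 8.82% of the list against 6.08% of all genes. *STE2* was called in 2 and *FAR1* in 3 of the 8 fits that left out 1 library, 5 of which called no gene of the list. Of 22 amino acid permeases 3 were higher, such as *AGP2* (0.64 ± 0.11), and 4 lower, such as *GAP1* and the arginine permease *CAN1* (-0.34 ± 0.06), which is mutated in this background. Together these calls were 31.8% of the permease list. The fits without 1 library gave 1 to 8 calls there, with *AGP2* in 4 and *CAN1* in 2 of them. *ARO9*, an aromatic aminotransferase, was higher by 1.07 ± 0.16 log2 and the branched-chain aminotransferase *BAT2* by 0.35 ± 0.07, while *ILV3* of the same pathway differed by -0.26 ± 0.06. For uracil, *FUR1* and *URA5* had differences of -0.59 ± 0.11 and -0.24 ± 0.05. *HMX1*, heme oxygenase, was the only called gene among 34 of the iron and copper list (0.69 ± 0.14), a share of 2.94%. *MAL11*, a maltose transporter near a chromosome end, was the only one among 15 genes for other sugars (0.56 ± 0.13), a share of 6.67%. *ARO9* was called in all 8 fits that left out 1 library, and *BAT2*, *ILV3*, *FUR1*, *URA5*, *HMX1* and *MAL11* in 2 to 4 of them.

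Protein turnover and the endoplasmic reticulum gave small counts, with 9.38% of 32 autophagy genes called against 6.08% of all genes. The proteasome activators *ECM29* and *BLM10* were higher by 0.45 ± 0.10 and 0.28 ± 0.07 log2, and were the only called members of 38, which is 5.26% and below the share over all genes. *ECM29* was called in 2 and *BLM10* in 1 of the 8 fits without 1 library. *ATG39*, a receptor for autophagy of the nucleus, and *ATG1*, the starting kinase, were higher by 1.04 ± 0.15 and 0.58 ± 0.12 (called in 7 and 2 of these fits), with 3 of 32 autophagy genes called in all and 0 to 6 in the fits without 1 library. *SIL1* and *MPD1*, which serve protein folding in the endoplasmic reticulum, differed by -0.32 ± 0.06 and -0.34 ± 0.07, and *EPT1*, of phospholipid synthesis, by -0.31 ± 0.07, each called in 2 or 3 of the 8 fits. *SIL1* and *MPD1* were the called members of 27 genes for folding in that compartment (7.41%). *EPT1* was the only one of 26 for inositol and phospholipid synthesis (3.85%). The effects on *SIL1* had the same sign, -0.55 in *ubc9-6* and -0.23 in the Tfg1 mutant (unadjusted p = 0.00057), and that in *ubc9-6* was the larger.

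In many lists no difference was called by edgeR's quasi-likelihood test without a replicate block. These were the PHO regulon (29 tested), lysine (10), arginine (15), histidine (7) and other amino acid synthesis (22), zinc (14), ergosterol (34) and mitochondrial ribosomal proteins (73). The PHO regulon, for uptake of phosphate, held large differences between strains that the contrast did not call. With a replicate block within each background, 8 genes of this regulon were called lower. *PHO84*, its main transporter, counted 56.4 and 80.4 CPM in W303a, 43.6 and 40.9 in *ubc9-6*, 1225 and 626 in Tfg1-HA and 1459 and 1119 in Tfg1-K60,61R-HA. Both Tfg1 strains were far above W303a and *ubc9-6*, the Tfg1-HA replicates lay wide apart, and the difference of -1.18 ± 0.42 log2 was not called (adjusted p = 0.14, interval -2.13 to -0.23). Without Tfg1-HA replicate 1, 10 genes of this list were called.

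Genes near chromosome ends and Ty genes were read separately. Of 208 tested genes within 20 kb of the outermost gene of a chromosome, 9 were called higher and 1 lower, which is 4.81% against 6.08% of all genes, with a median of 0.15 log2. *YFL067W*, an uncharacterized gene at the left end of chromosome VI, counted 1.91 and 3.25 CPM in W303a, 8.87 and 9.25 in *ubc9-6*, 3.61 and 6.08 in Tfg1-HA and 1.68 and 2.72 in Tfg1-K60,61R-HA. *ubc9-6* was highest without overlap, the effects were opposite (1.79 and -1.16 log2), and the difference was 2.95 ± 0.45 (adjusted p = 0.0097). The fits without 1 library gave 4 to 22 calls in this set. *MSC1*, a gene near an end of chromosome XIII, differed by 1.01 ± 0.08. Of 44 Ty genes, which retrotransposons carry, 2 were called higher (4.55%), *YDR034C-D* and *YDR261W-B*. Each has 9 near-identical copies between which reads cannot be assigned. *RDT1*, a small gene on chromosome III, differed by -0.78 ± 0.16 log2. Medians over the genes of a nuclear chromosome lay between -0.02 and 0.04 log2.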

How the data were processed

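Counts per gene of 8 RNA-seq libraries, 2 for each of 4 strains, were analysed. The authors aligned reads with HISAT2 2.1.0 to sacCer3 and counted fragments on exons with featureCounts (Subread 2.0.0), and they deposited raw counts of 6120 genes. No strand option was set, so overlapping and antisense genes cannot be told apart, and reads that fit several places were left out. The authors also deposited tables of their own comparisons, with log2 fold changes, levels, likelihood ratios and p-values, which were not used here.

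Groups and replicate numbers came from the labels. edgeR 4.0.16 under R 4.3.3 was used to fit one mean per strain, with the 8 libraries in a single model, TMM scaling, edgeR's default filter on low counts (minimum 10) and the quasi-likelihood test. The contrast was (*ubc9-6* minus W303a) minus (Tfg1-K60,61R-HA minus Tfg1-HA), and Benjamini-Hochberg adjustment ran over all 5909 tested genes. Errors are standard errors of the fit. CPM were computed from the TMM-scaled library sizes. With 2 libraries per strain no permutation of a single gene could reach the threshold. The procedure was tested on simulated counts.

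Genes are named by rule: the 12 highest and 12 lowest called differences with a mean count of 50 or more and no overlap of the effects between library pairs, the 2 smallest p-values of each list, *UBC9*, *TFG1*, *SMT3* and *TRP1*, and up to 6 genes with opposite effects. Others were chosen after their values were seen. Some items are not reported here. The comparison and all 46 lists were chosen with earlier results of these data known. Motifs and windows were chosen after the calls were seen. Gene names were matched to RefSeq R64 for 5995 genes, 5983 of them at the same coordinates. Copies were called near-identical when 95% or more of the aligned bases matched across 50% or more of a gene. Alternatives were RLE scaling, total counts, other filters, DESeq2 1.42.0, the likelihood ratio test, replicate blocks, omission of chromosome ends and Ty genes, and omission of each library.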

Additional observations from a re-analysis of the deposited data

Results flagged for a closer look

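The 359 genes whose difference was called are themselves a difference between groups under the same contrast, tested by the interaction of strain pair and mutation in edgeR's quasi-likelihood test. Individual genes were picked out because their effects had opposite signs in the 2 backgrounds, with an unadjusted p under 0.05 on both sides and a call for the difference. For *ADR1* the difference was 1.09 log2. The others were lower in *ubc9-6* and higher in Tfg1-K60,61R-HA, each against its parent. They were *TPI1* (-0.50), *HTA2* (-0.48), *FBA1* (-0.46), *PGK1* (-0.37) and *CDC19* (-0.35). On the Tfg1 side none of the 6 was called after adjustment.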

How the results depend on the processing

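Named genes kept the direction of their difference in every alternative run except *SMT3*, which was not called in any and turned from -0.04 to 0.08 with total counts and to 0.05 without Tfg1-K60,61R-HA replicate 1. The 359 calls became 360 with RLE scaling, 359 without a filter on low counts, 363 with at least 10 counts in every library, 455 by the likelihood ratio test, 464 by DESeq2 and 370 after removal of Ty genes and of genes close to chromosome ends. Scaling by total counts gave 647, of which 89.8% were higher against 52.9% with TMM factors, and 256 of the 359 were among them. Leaving out 1 library, which assumes that the lone library of a strain varies like the others, gave 94 to 672 calls. In the same fits *ubc9-6* against W303a had 262 to 1921 calls and Tfg1-K60,61R-HA against Tfg1-HA 0 to 446, the highest without Tfg1-K60,61R-HA replicate 2 (with 0 in the fit of all libraries). That Tfg1 comparison had 36 calls by DESeq2, 3 by the likelihood ratio test and 1 with crossed numbers in the block below. Deviations of same-numbered libraries correlated at -0.19 between W303a and *ubc9-6* and 0.12 between the Tfg1 strains. A correlation over all genes cannot decide whether some genes share a replicate effect. A replicate block shared by all strains left 253 calls, a block within each background 350, and a block with the *ubc9-6* numbers crossed, added after the data were seen, 471. Both blocks within backgrounds called 8 thiamine genes, 7 of them lower, against 1 without a block, and they called 8 and 10 genes of the PHO regulon lower against none. In all, 76 of the 359 genes were called under all 18 alternatives, and 42 of the 77 called named genes in all 8 fits without 1 library. The causes of these changes were not tested. Limits are the 2 libraries per strain, the wide spread of Tfg1-K60,61R-HA, the marker that only W303a lacks, and the HA tag that both Tfg1 strains carry and the others lack.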

Other observations

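Of the called genes, 137 lay outside the lists, and 3 enzymes among them are given here, chosen after their values were seen. *CAT2*, the carnitine acetyltransferase of mitochondria and peroxisomes, counted 8.60 and 8.65 CPM in W303a, 16.7 and 18.6 in *ubc9-6*, 9.25 and 9.53 in Tfg1-HA and 9.86 and 8.92 in Tfg1-K60,61R-HA, and its difference was 1.03 ± 0.14 log2 (adjusted p = 0.0049). *CYB2*, the L-lactate dehydrogenase, counted 46.3 and 41.5 CPM in W303a, 90.8 and 92.4 in *ubc9-6*, 94.1 and 108 in Tfg1-HA and 82.2 and 104 in Tfg1-K60,61R-HA. *GUT2*, the mitochondrial glycerol phosphate dehydrogenase, counted 42.6 and 44.7 CPM in W303a, 73.7 and 77.5 in *ubc9-6*, 88.3 and 93.3 in Tfg1-HA and 88.4 and 85.7 in Tfg1-K60,61R-HA. Both had W303a alone at the bottom, with differences of 1.19 ± 0.16 (adjusted p = 0.0047) and 0.85 ± 0.07 (adjusted p = 0.00047). *CAT2* had *ubc9-6* at the top as well.

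The snoRNA genes *snR17a*, *snR30* and *snR34* were called higher although the libraries were made from polyadenylated RNA. *snR17a*, the U3 snoRNA, had 3.78 and 3.25 CPM in W303a, 4.83 and 4.30 in *ubc9-6*, 9.52 and 9.53 in Tfg1-HA and 6.80 and 6.89 in Tfg1-K60,61R-HA. Its effects were 0.38 in *ubc9-6* and -0.48 in the Tfg1 mutant, and the difference was 0.86 ± 0.17 log2 (adjusted p = 0.027).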
